A study of Mus musculus with 8 samples.

Results

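Transcripts of skeletal muscle were followed array by array in mouse epidermis from the dorsal skin study of REDD1 and the glucocorticoid fluocinolone acetonide (FA). The members are 39 listed genes of the contractile apparatus, the calcium system and the energy supply of striated muscle, and they were found by the gene symbol of the platform annotation. Of these, 36 genes had 50 probes on the array, out of 25697 probes in all. Cacna1s, Myh2 and Neb carried no probe with their symbol and were dropped. The members had been picked for their difference between the 2 arrays of the REDD1 KO FA group, so that difference is described here without a test.

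The 8 arrays, 2 per group, were of the type Illumina MouseRef-8 v2.0 and carried RNA from epidermis. In the REDD1 KO FA group, mice lacking REDD1 (gene Ddit4) received FA on the skin at 2 µg per animal, and the epidermis was taken 24 h later. REDD1 KO vehicle mice had the same deletion and received acetone without FA. The wild-type FA and wild-type vehicle groups had intact REDD1 and received the same FA dose or acetone. All animals were 7-week-old females in telogen, the resting stage of the hair cycle. The sample labels name the strain B6D2 and the posterior ear lobe as source and call the vehicle arrays untreated, whereas the methods of the study describe B6x129 mice, FA on back skin and acetone. In the knockout, part of the gene is replaced by a LacZ/neo cassette in every cell of the animal. Each array is described as an individual RNA sample, so the error between the 2 arrays of a group covers the animal, the dissection and the array together.

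Skeletal muscle fibers contract when thick filaments of myosin pull on thin filaments of actin inside the sarcomere, whose ends are anchored at the Z-disc. Calcium released from the sarcoplasmic reticulum binds troponin on the thin filament and starts the contraction, and a calcium pump ends it. Fast and slow fibers use different isoforms of many of these proteins. The epidermis itself holds no striated fibers, but mouse skin has a thin sheet of striated muscle, the panniculus carnosus, under the dermis and the subcutaneous fat.

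Signals were dim across the series. Median intensities ran from 95.9 to 107 per array, against means of 90.5 to 99.3 for negative control beads, and 44.5% to 46.7% of all probes had a detection p under 0.05 and count as detected. Within groups, the 2 arrays correlated with r of 0.976 to 0.990, lowest in REDD1 KO FA, over the 13131 probes detected on at least 2 arrays. The Ddit4 probe read 7.09 to 8.35 on the REDD1 KO arrays and 9.16 to 11.14 on the wild-type arrays (normalized log2 signal), without overlap, but the position of this probe relative to the deleted part is unknown here. The labelled tissue was visible in its keratins on each of the 8 arrays. Krt14, of the basal layer, read 13.84 to 14.50, and Krt10, of the suprabasal layers, 14.50 to 14.74.

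Upstream sequences of 4 members are shown as examples. In each of these genes REDD1 KO FA replicate 1 was highest and wild-type FA replicate 1 next. The same order held for 27 of the 34 member probes detected on at least 2 arrays. No link between sequence and signal was tested. The sequences are the 250 bases before the RefSeq start of each gene (build GRCm38.p6), read 5′ to 3′ on the strand of the gene. Capitals mark letters that match an E-box (CANNTG, the sequence bound by myogenic factors such as MyoD), TATAAA, the CArG box of serum response factor or the MEF2 motif, on either strand. Acta1, skeletal alpha-actin, lies on the minus strand with its window at chr8:123894776-123895025. Ckm, muscle creatine kinase, lies on the plus strand at chr7:19410844-19411093. Myl1, an alkali light chain of fast myosin, lies on the minus strand at chr1:66945057-66945306. Myh4, a fast myosin heavy chain, lies on the plus strand at chr11:67237562-67237811.
Acta1: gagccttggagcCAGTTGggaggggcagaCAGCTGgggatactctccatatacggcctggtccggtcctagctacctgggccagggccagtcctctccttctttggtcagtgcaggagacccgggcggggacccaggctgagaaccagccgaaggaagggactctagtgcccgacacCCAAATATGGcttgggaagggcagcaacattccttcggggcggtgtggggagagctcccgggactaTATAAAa
Ckm: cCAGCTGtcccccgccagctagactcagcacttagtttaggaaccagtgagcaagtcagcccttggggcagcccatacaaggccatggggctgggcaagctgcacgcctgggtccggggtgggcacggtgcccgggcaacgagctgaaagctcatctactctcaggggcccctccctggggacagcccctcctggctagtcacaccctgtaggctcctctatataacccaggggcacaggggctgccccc
Myl1: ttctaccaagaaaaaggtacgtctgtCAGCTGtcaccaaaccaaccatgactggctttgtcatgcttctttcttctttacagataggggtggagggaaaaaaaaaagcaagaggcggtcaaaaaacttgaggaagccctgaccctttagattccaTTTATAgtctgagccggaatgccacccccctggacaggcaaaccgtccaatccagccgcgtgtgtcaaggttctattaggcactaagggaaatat
Myh4: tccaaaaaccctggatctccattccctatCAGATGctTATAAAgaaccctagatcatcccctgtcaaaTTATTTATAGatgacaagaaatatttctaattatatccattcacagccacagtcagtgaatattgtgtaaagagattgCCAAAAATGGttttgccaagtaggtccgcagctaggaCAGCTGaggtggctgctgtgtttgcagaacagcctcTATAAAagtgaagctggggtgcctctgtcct

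The E-box form CAGCTG stood in all 4 windows and the CArG box in those of Acta1 and Myh4. RefSeq windows were matched for 29 of the 36 genes, some with several start sites, giving 35 windows. CAGCTG, which is its own reverse complement and also counts as an E-box, occurred in 18 of these 35 windows (51.4%) and in 13.0% of all 32851 mouse windows of this length. Any CANNTG occurred in 85.7% of the member windows and 66.2% of all windows. The CArG box was found in 11.4% and 1.47%, the MEF2 motif in 17.1% and 2.92%, and TATAAA in 14.3% and 12.4%. These counts describe letters and were not tested.

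The number of detected muscle probes separated the arrays, although the share of detected probes overall hardly did. On REDD1 KO FA replicate 1, 38 of the 50 probes were detected, and on replicate 2 of the same group 15. REDD1 KO vehicle had 29 and 16 detected probes in replicates 1 and 2, wild-type FA had 32 and 19, and wild-type vehicle had 26 and 23. The median log2 signal of the 50 probes was 7.35 on REDD1 KO FA replicate 1, and on the other 7 arrays it lay between 4.40 and 5.17, near the median of all probes (4.51). In bulk RNA, a higher muscle signal from more muscle cells in a sample and from more muscle RNA per cell cannot be told apart.

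Of the 36 genes, 27 had a probe detected on at least 2 arrays, and their values follow by role, from the brightest probe of each gene. All signals are log2 values after background correction and quantile normalization, with an offset that puts an undetected probe near 4 to 5. Signals of different probes are not compared with each other.

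The thick filament is built of myosin heavy chains, their light chains and myosin-binding protein C. Myl1 read 13.14 and 5.38 on replicates 1 and 2 of REDD1 KO FA, 9.52 and 7.05 in REDD1 KO vehicle, 9.92 and 8.08 in wild-type FA, and 8.35 and 8.82 in wild-type vehicle. Thus the REDD1 KO FA group held both the highest and the lowest value of Myl1 in the series. Mylpf, the regulatory light chain of fast fibers, read 10.65 and 5.0 in REDD1 KO FA, 6.39 and 5.26 in REDD1 KO vehicle, 7.40 and 6.48 in wild-type FA, and 6.06 and 6.06 in wild-type vehicle. Myh4 read 10.10 and 4.33 in REDD1 KO FA, 6.79 and 4.20 in REDD1 KO vehicle, 6.89 and 5.45 in wild-type FA, and 5.71 and 5.28 in wild-type vehicle. Its lower REDD1 KO values, on both replicates 2, were not detected above background. Myh1, another fast heavy chain, read 7.22 and 4.46 in REDD1 KO FA, 4.52 and 4.66 in REDD1 KO vehicle, 5.20 and 4.36 in wild-type FA, and 4.30 and 5.61 in wild-type vehicle. Myh1 was the member with a wild-type vehicle difference of more than 1 between replicates, and there replicate 2 was the higher array. Mybpc2, the fast form of myosin-binding protein C, read 9.64 and 4.41 in REDD1 KO FA, 5.58 and 4.21 in REDD1 KO vehicle, 5.76 and 4.47 in wild-type FA, and 4.81 and 4.57 in wild-type vehicle. Mybpc1, the slow-type form that fast fibers also carry, read 6.24 and 4.87 in REDD1 KO FA, 4.81 and 4.56 in REDD1 KO vehicle, 5.96 and 5.96 in wild-type FA, and 5.31 and 4.78 in wild-type vehicle. Here the 2 wild-type FA arrays were alike and above both wild-type vehicle arrays, a separation that was not counted over all probes.

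Among the thin filament genes, 4 of the 5 detected ones shared with Myl1 the 3 highest arrays and the 2 lowest. Acta1 read 12.91 and 6.08 in REDD1 KO FA, 9.22 and 6.73 in REDD1 KO vehicle, 9.93 and 7.83 in wild-type FA, and 8.51 and 8.62 in wild-type vehicle. In bead intensity before normalization, Acta1 had 8020 and 132.9 units in REDD1 KO FA. The 3 fast troponin subunits follow. Tnni2, the inhibitory subunit, read 12.27 and 6.04 in REDD1 KO FA, 8.57 and 6.41 in REDD1 KO vehicle, 8.79 and 7.24 in wild-type FA, and 7.46 and 7.48 in wild-type vehicle. Tnnc2, the calcium-binding subunit, read 11.46 and 4.66 in REDD1 KO FA, 7.23 and 4.93 in REDD1 KO vehicle, 8.02 and 6.29 in wild-type FA, and 6.43 and 6.42 in wild-type vehicle. Tnnt3, which ties the complex to tropomyosin, read 11.29 and 4.30 in REDD1 KO FA, 7.48 and 5.30 in REDD1 KO vehicle, 7.74 and 6.15 in wild-type FA, and 6.34 and 6.13 in wild-type vehicle. For each of these troponin genes, the 2 wild-type vehicle arrays lay close together while the 2 arrays of every other group lay more than 1 log2 unit apart. Tpm2, beta-tropomyosin, which smooth muscle also expresses, departed from this order in its brightest probe (ILMN_2487170). That probe read 8.92 and 8.35 in REDD1 KO FA, 7.39 and 7.75 in REDD1 KO vehicle, 8.38 and 8.65 in wild-type FA, and 7.03 and 7.69 in wild-type vehicle. All 4 FA arrays were above all 4 vehicle arrays, but the share of all probes that do the same was not counted. A second Tpm2 probe (ILMN_2482209) read 9.88 and 4.92 in REDD1 KO FA, 6.44 and 4.30 in REDD1 KO vehicle, 7.57 and 5.71 in wild-type FA, and 5.62 and 6.06 in wild-type vehicle, and was thus high and low on the same arrays as the troponins. The remaining Tpm2 probe was detected on none of the 8 arrays.

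In their brightest probes, Z-disc and scaffold members other than Des were not above background on replicate 2 of REDD1 KO FA, REDD1 KO vehicle and wild-type FA. Des, the desmin filament around the Z-disc, was detected on all 8 arrays. Des read 9.03 and 5.60 in REDD1 KO FA, 6.14 and 5.97 in REDD1 KO vehicle, 6.93 and 6.40 in wild-type FA, and 6.04 and 5.55 in wild-type vehicle. Actn3, the fast-fiber alpha-actinin, read 9.44 and 4.62 in REDD1 KO FA, 5.60 and 4.22 in REDD1 KO vehicle, 5.72 and 4.64 in wild-type FA, and 4.99 and 4.47 in wild-type vehicle. A second Actn3 probe (ILMN_3008110) was detected on 6 arrays, REDD1 KO vehicle replicate 2 with 4.61 among them. Ttn, titin, which spans the sarcomere from Z-disc to M-line, read 9.07 and 4.40 in REDD1 KO FA, 4.94 and 4.35 in REDD1 KO vehicle, 6.03 and 4.43 in wild-type FA, and 4.58 and 5.27 in wild-type vehicle. Ttn was detected on 4 arrays, and wild-type vehicle replicate 2 was among them. Myoz1, a calcineurin-binding Z-disc protein, read 7.78 and 4.33 in REDD1 KO FA, 4.97 and 4.45 in REDD1 KO vehicle, 5.16 and 4.57 in wild-type FA, and 4.69 and 4.54 in wild-type vehicle. Tcap, the titin cap, read 7.47 and 4.29 in REDD1 KO FA, 4.86 and 4.30 in REDD1 KO vehicle, 5.18 and 4.39 in wild-type FA, and 4.76 and 4.45 in wild-type vehicle. Actn2, the other muscle alpha-actinin, read 6.24 and 4.41 in REDD1 KO FA, 4.57 and 4.54 in REDD1 KO vehicle, 4.91 and 4.26 in wild-type FA, and 4.38 and 4.60 in wild-type vehicle. Actn2 was detected only on the replicate 1 arrays of the FA groups.

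For the calcium system, the REDD1 KO FA arrays differed most in Pvalb. Parvalbumin, its product, is the calcium buffer of fast fibers. Pvalb read 12.49 and 4.56 in REDD1 KO FA, 8.52 and 5.03 in REDD1 KO vehicle, 9.32 and 7.35 in wild-type FA, and 7.69 and 6.93 in wild-type vehicle. Its bead intensity in REDD1 KO FA was 6065 and 98.9 units, the second of these not above background. Atp2a1, the calcium pump of fast fibers, read 12.45 and 5.52 in REDD1 KO FA, 8.88 and 6.42 in REDD1 KO vehicle, 9.32 and 7.51 in wild-type FA, and 8.03 and 8.14 in wild-type vehicle. Ryr1, the calcium release channel, read 7.12 and 4.68 in REDD1 KO FA, 4.94 and 4.64 in REDD1 KO vehicle, 4.87 and 4.88 in wild-type FA, and 4.64 and 4.55 in wild-type vehicle. Apart from REDD1 KO FA replicate 1, this Ryr1 probe lay between 4.55 and 4.94 on every array. Another Ryr1 probe (ILMN_2733073) read 5.17 and 4.35 in REDD1 KO vehicle and 5.05 and 4.37 in wild-type FA. It was detected only on replicate 1 of REDD1 KO FA, REDD1 KO vehicle and wild-type FA.

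Energy supply genes were also high on REDD1 KO FA replicate 1. Ckm read 10.76 and 4.23 in REDD1 KO FA, 6.70 and 4.28 in REDD1 KO vehicle, 7.26 and 5.42 in wild-type FA, and 5.42 and 5.01 in wild-type vehicle. Eno3, muscle enolase, read 9.36 and 5.68 in REDD1 KO FA, 5.90 and 5.58 in REDD1 KO vehicle, 6.79 and 5.67 in wild-type FA, and 5.90 and 5.68 in wild-type vehicle. Pgam2, muscle phosphoglycerate mutase, read 8.79 and 4.34 in REDD1 KO FA, 6.06 and 4.57 in REDD1 KO vehicle, 6.09 and 4.51 in wild-type FA, and 5.25 and 5.82 in wild-type vehicle. For Ckm and Pgam2, and for Cox6a2, Cox8b, Mb and Pygm below, REDD1 KO FA replicate 2 was the lowest of the 8 arrays. None of these genes was above background there, so its rank is uncertain. Cox6a2, the muscle form of a cytochrome oxidase subunit, read 9.58 and 4.28 in REDD1 KO FA, 5.83 and 4.87 in REDD1 KO vehicle, 6.31 and 5.25 in wild-type FA, and 5.32 and 5.38 in wild-type vehicle. Cox8b, another oxidase subunit of muscle, read 8.96 and 4.44 in REDD1 KO FA, 5.42 and 4.46 in REDD1 KO vehicle, 6.17 and 5.11 in wild-type FA, and 5.18 and 5.38 in wild-type vehicle. Mb, myoglobin, read 7.65 and 4.24 in REDD1 KO FA, 4.93 and 4.51 in REDD1 KO vehicle, 5.27 and 4.54 in wild-type FA, and 4.83 and 5.08 in wild-type vehicle. Pygm, muscle glycogen phosphorylase, read 6.23 and 4.22 in REDD1 KO FA, 4.79 and 4.26 in REDD1 KO vehicle, 4.41 and 4.43 in wild-type FA, and 4.23 and 4.28 in wild-type vehicle. It was detected only on replicate 1 of the REDD1 KO groups.

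**Figure D1:**
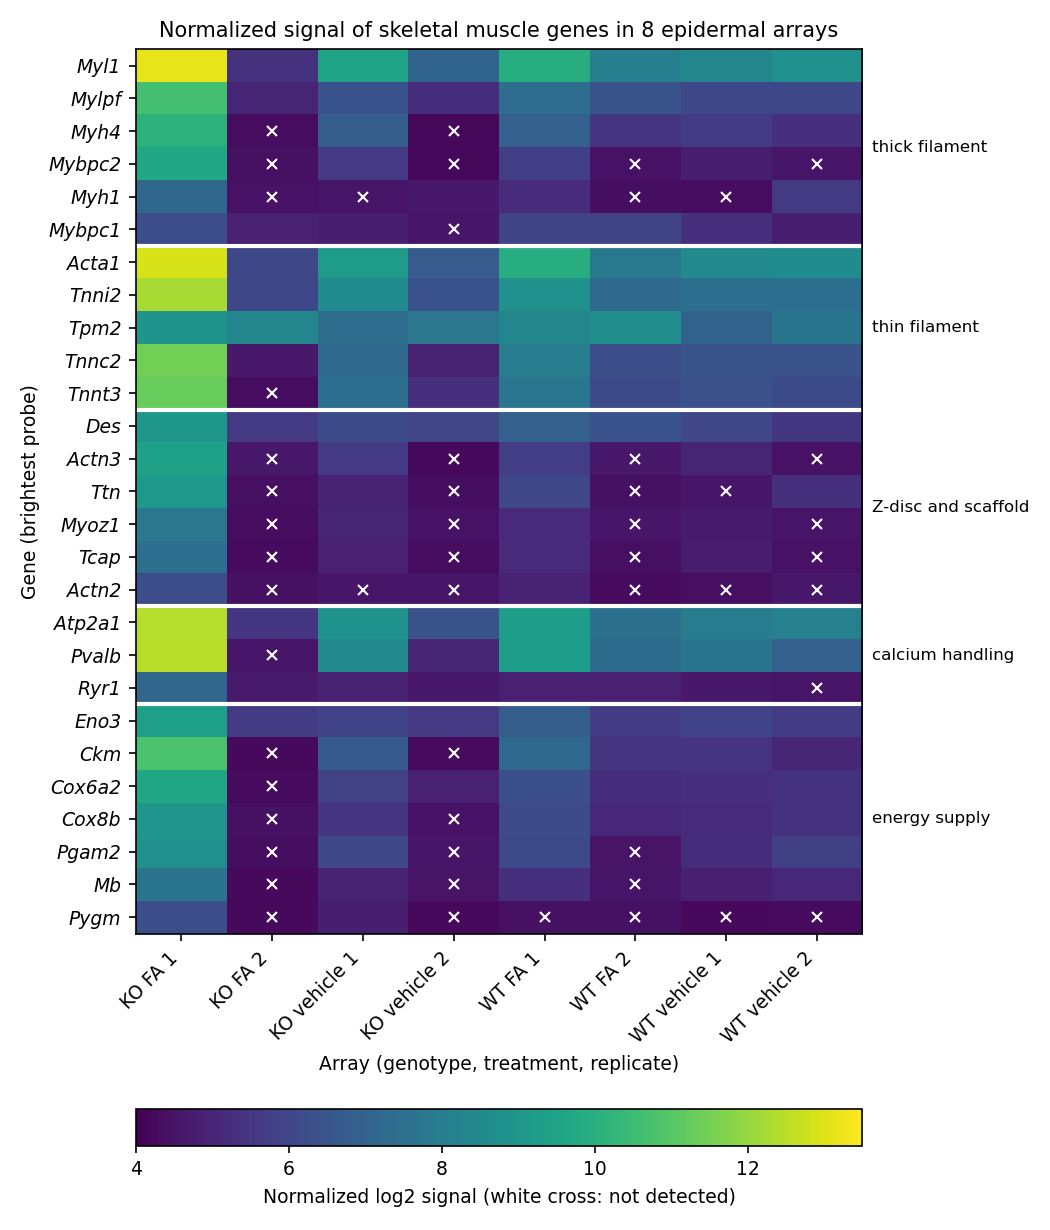
Normalized log2 signal (color) of the 27 skeletal muscle genes detected on at least 2 of 8 arrays, by role (rows, brightest probe) and array (columns, 2 per group); white crosses mark signals not above background. The column of REDD1 KO FA replicate 1 is the brightest, with Myl1 at 13.14, and that of replicate 2 has the most crosses.

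The 9 remaining genes had no probe detected on 2 arrays, with signals between 4.15 and 6.40. Among them were all 5 slow-fiber genes on the array, namely Myh7, Tnnc1, Tnni1, Tnnt1 and Casq2, none of which was detected on REDD1 KO FA replicate 1. By contrast, 12 of 13 fast-fiber genes were detected there, all but Casq1. Between the 2 REDD1 KO FA arrays, the fast genes had a median difference of 5.76, the 18 genes shared by both fiber types 3.30, and the slow genes -0.01 (brightest probe per gene, log2, replicate 1 minus replicate 2). Ckmt2, the mitochondrial creatine kinase of muscle, was detected on REDD1 KO FA replicate 1 only, and Mylk2 and Ldb3 were detected on no array. Because probes differ in how well they bind, an undetected slow isoform does not give its level.

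Probes of the same gene did not all follow one another. Of the 9 genes with several probes, Myl1 had a second probe that was detected on REDD1 KO FA replicate 1 alone and differed between the 2 arrays of that group by 1.71. The 4 Ryr1 probes differed between the REDD1 KO FA arrays by 3.39, 2.44, 2.43 and -0.40. The 3 Actn3 probes differed by 4.82, 4.21 and 0.58, and the 3 Mybpc1 probes by 1.37, 0.95 and 0.04.

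The 2 REDD1 KO FA arrays differed by 2.60 log2 units in the median of the 50 probes, against -0.01 for all probes with an SD of 0.346. The range was -0.55 for Tnni1 to 7.93 for Pvalb, and 44 of 50 probes were higher on replicate 1. In linear terms, the signal of Myl1 was 217-fold higher on replicate 1, that of Atp2a1 122-fold, of Acta1 114-fold and of Tnnc2 111-fold. Where replicate 2 was not above background, the fold was taken against the lowest signal of a detected probe on that array, giving at least 227-fold for Pvalb, at least 99-fold for Tnnt3 and at least 68.5-fold for Ckm. A log2 difference above 1 was found for 33 of 50 member probes, from 28 of 36 genes, and for 0.654% of all probes. Members held the 10 largest differences of all 25697 probes and 17 of the largest 20. These are the values by which the genes were picked, so nothing is read from the counts.

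**Figure D2:**
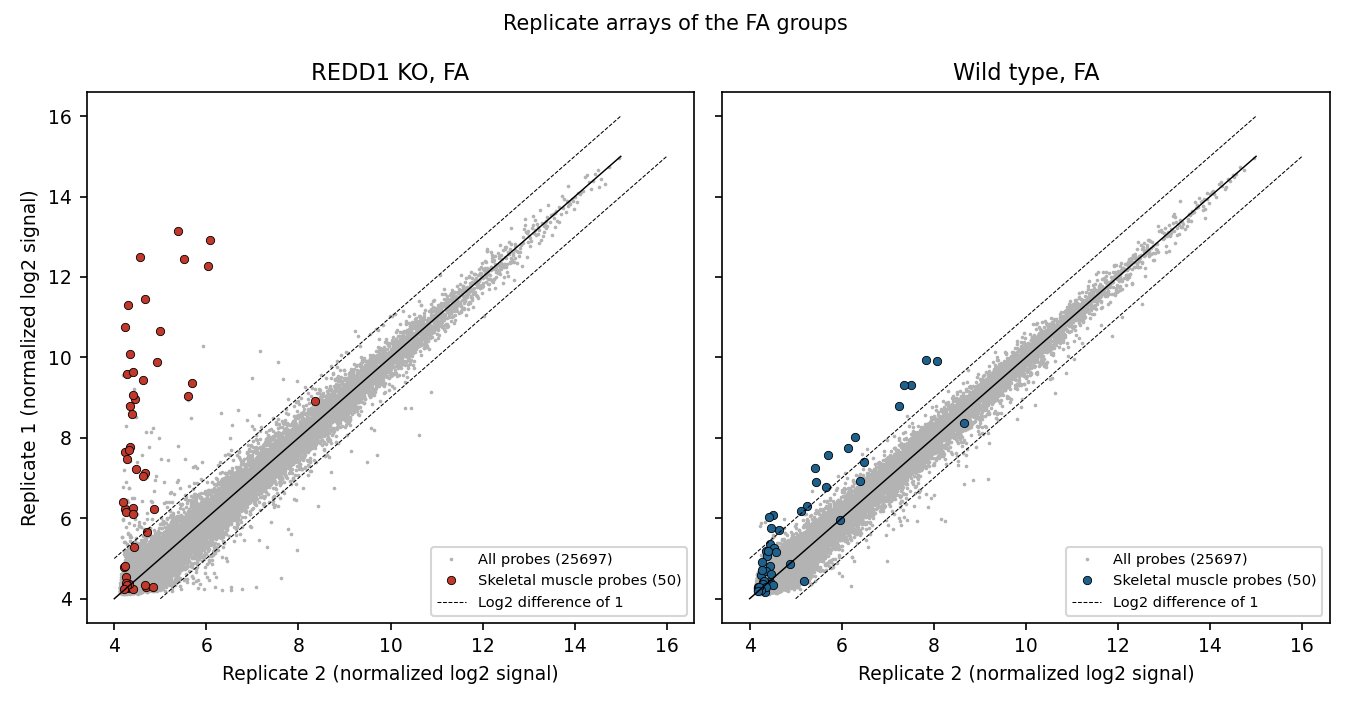
Normalized log2 signal of replicate 1 (vertical) against replicate 2 (horizontal) for REDD1 KO FA (left) and wild-type FA (right). Gray points are all 25697 probes, colored points the 50 skeletal muscle probes, the solid line equality and the dashed lines a log2 difference of 1; muscle probes lie up to 7.93 above the line in REDD1 KO FA and up to 2.10 in wild-type FA.

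The genes were picked with all arrays known, chiefly for the REDD1 KO FA pair, so the other 3 pairs are also given without a test. In REDD1 KO vehicle, replicate 1 was higher than replicate 2 by more than 1 log2 unit for 14 member probes, against 0.226% of all probes, and the largest difference was 3.49 for Pvalb. In wild-type FA, 17 member probes exceeded 1, against 0.136% of all probes, and the largest difference was 2.10 for Acta1. In wild-type vehicle, no member probe exceeded 1 (0.514% of all probes did), and Myh1 was below -1 with -1.31, as were 0.412% of all probes. The median differences of the 50 probes in these pairs were 0.29, 0.56 and -0.03, with SDs over all probes of 0.266, 0.225 and 0.284. Of the 50 probes, 44 were higher on replicate 1 in REDD1 KO FA, 41 in REDD1 KO vehicle, 40 in wild-type FA and 20 in wild-type vehicle. The labels do not say that a replicate number is shared across groups. With 2 arrays, no test of a pair is possible.

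**Figure D3:**
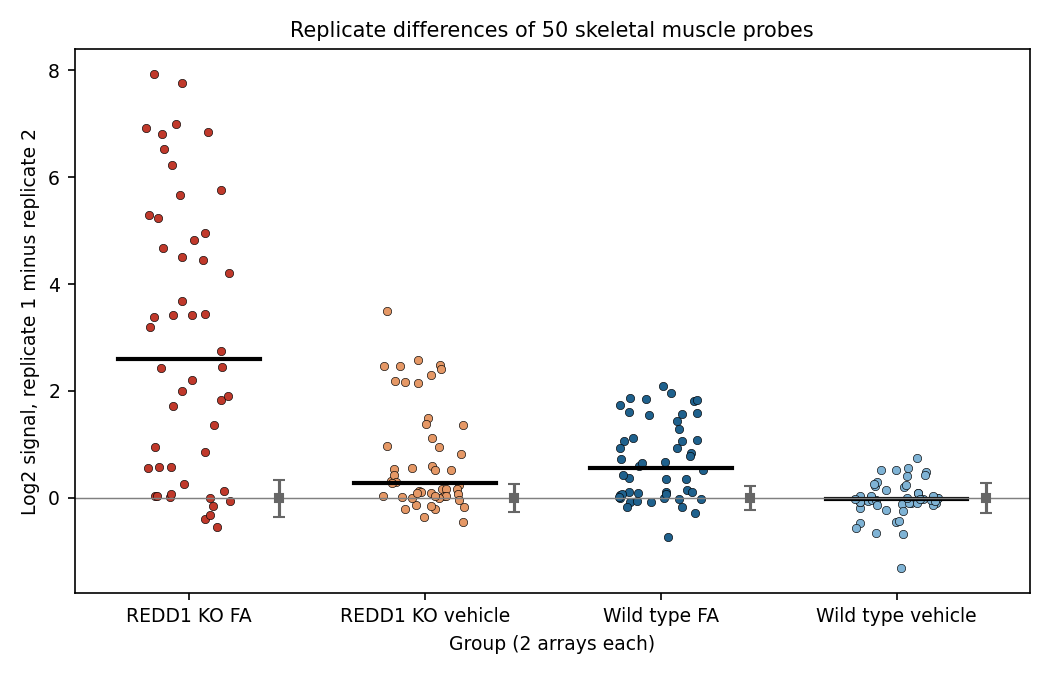
Log2 difference between replicate 1 and replicate 2 (vertical) for the 50 skeletal muscle probes in each group. Points are probes, black lines medians of the 50 probes, and gray squares with bars the median and SD of all 25697 probes; the medians are 2.60 in REDD1 KO FA, 0.29 in REDD1 KO vehicle, 0.56 in wild-type FA and -0.03 in wild-type vehicle.

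The order of the arrays is given as a description, since the genes were picked chiefly on the REDD1 KO FA pair. A high signal on REDD1 KO FA replicate 1 also helped probes such as Pygm and Actn2 pass the detection filter. The same counts were not taken over all probes. Among the 34 probes detected on at least 2 arrays, all had their highest signal on REDD1 KO FA replicate 1, and 19 had their lowest on replicate 2 of that group. With that array set aside, wild-type FA replicate 1 was highest of the other 7 for 27 of the 34 probes. For the 8 probes detected on every array, Tpm2 aside, REDD1 KO FA replicate 1 exceeded wild-type FA replicate 1 by a median of 3.17 (range 2.10 to 3.48) and REDD1 KO vehicle replicate 1 by 3.66 (2.89 to 4.27). It exceeded wild-type vehicle replicates 1 and 2 by 4.51 and 4.31, wild-type FA replicate 2 by 4.98 and REDD1 KO vehicle replicate 2 by 5.94. The largest median, 6.51, was against its own partner, REDD1 KO FA replicate 2. For those 19 probes, being highest and lowest means that the 2 REDD1 KO FA values enclosed the values of every other group. Most of the 19 were not above background on REDD1 KO FA replicate 2, so their exact rank there is uncertain. Pygm, for example, read 4.22 there and 4.23 on wild-type vehicle replicate 1, both not above background.

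The spread of these genes within groups includes the REDD1 KO FA pair they were picked on, so it is given as a description. Among the 13131 probes detected on at least 2 arrays, members took 8 of the 10 largest SDs within groups and 27 of the largest 100. The standard error of a group difference had a median of 1.08 over the 34 tested member probes and 0.187 over all tested probes. With one or the other REDD1 KO FA array left out, the median for wild-type FA minus wild-type vehicle was 0.38 over the members and 0.181 over all tested probes, and on the 4 wild-type arrays alone it was 0.32 and 0.183.

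The design asks whether FA changes transcripts in epidermis with and without REDD1, and whether the genotypes differ. All group differences were tested with limma on the 8 arrays, with Benjamini-Hochberg adjustment over 13131 probes. The REDD1 KO FA pair that the genes were picked on enters the standard error of every comparison. Low counts of called members are therefore not read as a result about the members. Between REDD1 KO FA and REDD1 KO vehicle, 0 of 34 tested member probes were called at an adjusted p under 0.05, while 4.51% of all tested probes were. The median difference was 1.34 and all 34 were above 0, with 3 below an unadjusted limma p of 0.05, as were 19.6% of all tested probes. The direction rested on REDD1 KO FA replicate 1. Without it the median difference was -0.45, and 30 of 34 probes were below 0. Without replicate 2 instead, the median was 3.67, and 30 of 34 probes were called, against 3.37% of all tested probes. The values without either array rest on the pair the genes were picked on, and no meaning is attached to them. Acta1 had a log2 difference of 1.52 (limma adjusted p = 0.689), which was -1.90 without REDD1 KO FA replicate 1 and 4.94 without replicate 2.

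Between wild-type FA and wild-type vehicle, 1 of 34 member probes was called, against 6.34% of all tested probes. It was the brightest Tpm2 probe, with both wild-type FA arrays above both wild-type vehicle arrays, a separation not counted over all probes. This probe was 1.15 ± 0.27 higher with FA (log2, SE, 2 arrays per group, limma adjusted p = 0.0394). It did not pass without wild-type vehicle replicate 1 (0.83, limma adjusted p = 0.167), wild-type FA replicate 1 (1.29, adjusted p = 0.134) or wild-type FA replicate 2 (1.02, adjusted p = 0.2). Nor did it pass with one or the other REDD1 KO vehicle array left out (limma adjusted p = 0.0531), without background correction (0.0544), with median centring (0.121) or without a probe filter (0.114). In REDD1 KO, the same probe differed by 1.07 ± 0.27 between FA and vehicle (limma adjusted p = 0.0627), and by 0.78 without REDD1 KO FA replicate 1. The FA difference of this probe in REDD1 KO minus that in wild type was -0.09 ± 0.38 (limma adjusted p = 0.951). The second Tpm2 probe differed by 0.80 ± 1.35 in wild type (limma adjusted p = 0.784). Mybpc1 was 0.91 ± 0.38 higher in wild-type FA than in wild-type vehicle (limma adjusted p = 0.19). Those values are from the brightest Mybpc1 probe. A second one (ILMN_2969105) differed by 0.34 ± 0.34 (limma adjusted p = 0.621), and its FA and vehicle values overlapped. Over all 34 probes the median difference in wild type was 0.35, and it was -0.13 without wild-type FA replicate 1.

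Between the genotypes, no member probe passed the threshold. REDD1 KO FA against wild-type FA gave 0 of 34 called, with a median difference of 1.03, while 7.16% of all tested probes were called. Without REDD1 KO FA replicate 1, the median was -0.77, and none of the 34 probes was above 0. Without replicate 2, the median was 3.28. Both medians rest on the pair the genes were picked on, and no meaning is attached to them. REDD1 KO vehicle against wild-type vehicle gave 0 of 34 called with a median of -0.03, and 0.51% of all tested probes were called. For the FA effect in REDD1 KO minus that in wild type, 0 of 34 were called and the median was 1.09, while 0.0305% of all tested probes were called. In each of these 3 comparisons, no member probe had an unadjusted limma p under 0.05, while 25.4%, 8.64% and 9.92% of all tested probes had in REDD1 KO FA against wild-type FA, in REDD1 KO vehicle against wild-type vehicle and in the FA effect of REDD1 KO minus that of wild type. Since the REDD1 KO FA pair enters each standard error, these low counts are not read as a result about the members. On the vehicle arrays alone, their median standard error was 0.299, against 0.184 over all tested probes. The smallest limma adjusted p of a member was then 0.623. The comparisons share groups, so their medians are not independent of each other.

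A list of 45 other skeletal muscle genes, which leaves out the members, had 33 genes on the array, and 19 were detected on REDD1 KO FA replicate 1 against 10 on replicate 2. In REDD1 KO vehicle, 8 were detected on each array, in wild-type FA 14 and 9, and in wild-type vehicle 9 on each. Of the 33 genes, 8 were more than 1 log2 unit higher on REDD1 KO FA replicate 1 than on replicate 2. Sln, the pump inhibitor sarcolipin, read 8.82 and 4.28 in REDD1 KO FA and 4.23 to 5.03 elsewhere. Ampd1, the AMP deaminase of muscle, read 8.53 and 4.47 in REDD1 KO FA and 4.36 to 5.14 elsewhere. Myom1, of the M-line, read 8.23 and 4.83, and Pfkm, muscle phosphofructokinase, 10.15 and 7.17 in REDD1 KO FA. Others on the list did not share the difference, such as Tmod4, which caps thin filaments, with 11.62 and 11.56 in REDD1 KO FA, 10.39 and 9.98 in REDD1 KO vehicle, 10.57 and 10.10 in wild-type FA, and 9.91 and 8.72 in wild-type vehicle. Of 15 tested genes, 1 was called between REDD1 KO FA and REDD1 KO vehicle, against 4.51% of all tested probes. This count is not read as a result about the list. The called gene was Fhl1, a LIM-domain protein of skeletal muscle, higher by 2.39 ± 0.42 (log2, SE, limma adjusted p = 0.0156). Fhl1 read 10.81 and 9.83 in REDD1 KO FA, against 8.56 and 7.29 in REDD1 KO vehicle, with no overlap. In wild type it read 9.97 and 9.71 with FA, against 8.06 and 8.50 with vehicle, also without overlap (difference 1.56, limma adjusted p = 0.0614), and the FA effect in REDD1 KO minus that in wild type was 0.84 (adjusted p = 0.674). None of the 15 was called in the other 4 comparisons, where 0.0305% to 7.16% of all tested probes were. How many of all probes lie without overlap, like Fhl1, was not counted.

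Over all probes outside the members with 1 gene symbol, the 10 largest differences of REDD1 KO FA replicate 1 minus replicate 2 came from 9 genes. Rpl3l, the muscle paralog of a ribosomal protein, led with 9.56 and 4.19 in REDD1 KO FA, 5.77 and 4.30 in REDD1 KO vehicle, 5.91 and 4.32 in wild-type FA, and 4.88 and 4.99 in wild-type vehicle. Next came Sln (difference 4.54), Pde4dip (4.37), which encodes myomegalin, a Z-disc and centrosome protein, Eef1a2 (4.23 and, in a second probe, 3.48), the elongation factor of muscle and neurons, and Ampd1 (4.06). The rest were 2310002L09Rik (3.45), Myom1 (3.40), Pfkm (3.33) and Adssl1 (3.33), the muscle form of adenylosuccinate synthetase.

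Markers of other cell types were set beside these values, by the brightest probe of each gene. Myogenic regulators were near background, with 3 of 10 genes detected on any array, and Myf6, a factor of mature fibers, read 6.45 and 4.27 in REDD1 KO FA and at most 4.36 elsewhere. Of 9 cardiac and slow isoforms, 3 were detected, and Actc1, cardiac actin, read 5.98 and 4.19 in REDD1 KO FA. Smooth muscle genes did not share the difference. Their median was 0.08 over 9 genes, and Acta2, smooth muscle actin, read 8.34 and 7.77 in REDD1 KO FA, 8.36 and 7.96 in REDD1 KO vehicle, 8.75 and 9.15 in wild-type FA, and 8.37 and 7.99 in wild-type vehicle. Fibroblast genes had a median of -0.24 over 7 genes, with none above 1. Adipocyte genes were mixed. Their median was 0.79 over 8 genes, 4 were above 1 and 1 was below -1. Adipoq, adiponectin, read 6.67 and 4.85 in REDD1 KO FA and 4.34 to 4.92 elsewhere. In REDD1 KO FA, Lep, leptin, read 6.10 and 4.49, and Cidec, of the lipid droplet, 5.99 and 4.45. Lpl read 8.00 and 6.5 in REDD1 KO FA, but 8.12 to 9.35 on the wild-type arrays. Pparg, the regulator of fat cell formation, which other skin cells express as well, read 4.49 and 5.58 in REDD1 KO FA. Fabp4 and Plin1 were detected on no array. Endothelial genes had a median of 0.27 over 8 genes, with 0.81 for Esam as the largest, and of 0.69 over the 5 detected genes. Basal and differentiating keratinocyte genes had medians of 0.37 and 0.12 over 8 genes each. All basal keratinocyte genes were higher on replicate 1, from 0.117 to 1.005, the latter for Krt5. Whether muscle or fat tissue under the skin entered a sample was not tested.

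**Figure D4:**
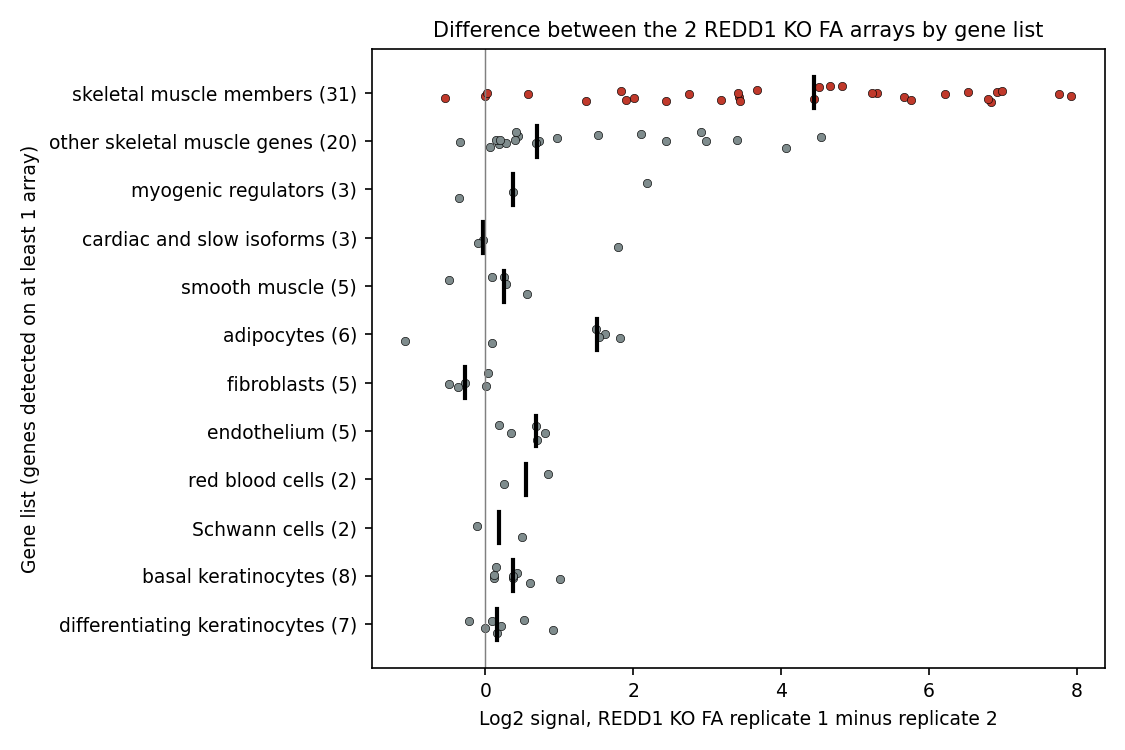
Log2 difference between REDD1 KO FA replicate 1 and replicate 2 (horizontal) for genes whose brightest probe was detected on at least 1 array, by list (rows, number of genes in parentheses). Points are genes and black lines medians; the members have a median of 4.45 over 31 genes, other skeletal muscle genes 0.70 over 20, adipocyte genes 1.51 over 6 and fibroblast genes -0.28 over 5.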

How the data were processed

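The authors deposited bead intensities of 25697 probes and 832 control lines for 8 arrays, neither background-corrected nor normalized, each with a detection p-value, also deposited, against the negative controls. They also deposited log2 values made with the neqc function of limma (background correction and quantile normalization using control probes). Neqc was rerun here in limma 3.58.1 (R 4.3.3, offset 16) with 798 negative controls, the number that the spacing of the detection p-values gives. The result differed from the deposited log2 values by at most 4.99e-09. 2 broken text lines were left out. Probe symbols came from the platform annotation, updated by Entrez number for 23962 probes, and 1719 probes had none.

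Groups and replicates came from the sample labels. Probes with a detection p under 0.05 on at least 2 of 8 arrays (13131) were fitted with limma, with 1 mean per group and two-sided p-values adjusted by Benjamini-Hochberg. Only 2 arrays per group limit the precision. The procedure was tested on simulated data. Replicate pairs were described over all probes. A gene detected on at least 2 arrays is given with every array's value, other members by counts and ranges, other genes as the 10 largest differences between the REDD1 KO FA arrays and a few per marker list. The members and lists were chosen with earlier results of these data known. Alternatives changed the background correction, offset, normalization, filter, variance model and arrays. Promoter windows are from RefSeq. Python 3.11.15 and matplotlib 3.10.9 made the figures.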

Additional observations from a re-analysis of the deposited data

How the results depend on the processing

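Precision is limited by 2 arrays per group and dim signal, and for the members by the REDD1 KO FA pair, since their median standard error of 1.08 was 0.38 (wild-type FA minus vehicle) with one or the other array of it left out. Log2 values as deposited, an offset of 50, the arrays of the comparison alone and array weights left all 5 counts of called members within 1.5 times. The count between REDD1 KO FA and REDD1 KO vehicle was 0, and it was 1 (Tpm2) with probes detected on all 8 arrays or with a trended and robust variance. Leaving out single arrays gave 0 to 30 called, with 1 without either wild-type vehicle array and 30 without REDD1 KO FA replicate 2. Between wild-type FA and wild-type vehicle the count was 1, and it was 0 without background correction, with median centring or without a filter. Leaving out single arrays lowered this count or left it, except that leaving out either REDD1 KO FA array raised it. That exception breaks up the pair the genes were picked on, so it is not read as a result about the members. The counts were 0 to 23 for REDD1 KO FA against wild-type FA and 0 to 5 for the difference of the FA effect, the upper values without REDD1 KO FA replicate 2. Without replicate 2, the REDD1 KO FA group is a single array, from the pair the genes were picked on. The counts of 30, 23 and 5 are therefore not read as a result about the members. REDD1 KO vehicle against wild-type vehicle gave 0 under every alternative run. The cause was not tested.

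Without REDD1 KO FA replicate 1, the difference between REDD1 KO FA and REDD1 KO vehicle turned to -1.90 for Acta1, -2.90 for Myl1, -2.22 for Pvalb, -2.13 for Atp2a1 and -1.45 for Tnni2. For Myl1 it was also -0.26 without REDD1 KO vehicle replicate 2. Without REDD1 KO FA replicate 2, the same genes reached 4.94, 4.86, 5.71, 4.79 and 4.78 (Acta1, Myl1, Pvalb, Atp2a1, Tnni2). Pvalb has no value with probes detected on all 8 arrays, since it is not among them.

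The median difference of the 50 probes between the REDD1 KO FA arrays (2.60) was 1.13 without background correction, 1.62 with an offset of 50, 4.33 over probes detected on at least 2 arrays and 3.44 over the brightest probe per gene.

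Same-numbered arrays are tied by no label, and each group has only 2 numbers. Their deviations correlated at 0.25 between the REDD1 KO groups, 0.23 between the FA groups and 0.215 between REDD1 KO vehicle and wild-type FA, and at -0.11 to -0.03 with wild-type vehicle. With the replicate number as a block, the counts of called members were 0 between REDD1 KO FA and REDD1 KO vehicle and 1 between wild-type FA and wild-type vehicle, as without it, and 0 in the other 3 comparisons. The chip as a block was not run, since the labels and files used here do not tell which chip held which array.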
